A study of Mus musculus with 6 samples.

Results

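The genes described here are the interstitial collagens of the mouse and the enzymes that modify procollagen and cross-link collagen. The rule that finds them reads gene symbols and no measured value: every collagen chain except Col4a1 to Col4a6, Col15a1 and Col18a1, together with the prolyl and lysyl hydroxylases, the prolyl 3-hydroxylase partner Crtap, the procollagen C-proteinase enhancers and the lysyl oxidases. Of the 22246 genes in the deposited expression table, 51 matched, 33 of them collagen chains and 18 modifying enzymes or enhancers; Col13a1, Col19a1 and Col6a6 are not analysed here. The study compared RNA sequencing libraries of HL-1 cells, 3 with a control shRNA (short hairpin RNA) and 3 with shRNA-Smyd4, which targets Smyd4, a gene for a protein with SET and MYND domains; both groups thus carry a hairpin. HL-1 is a cell line that was originally grown from an atrial tumour of the mouse heart, and the labels give its strain as C57BL/6 and its tissue as heart for both groups. Neither the hairpin's sequence and delivery nor the time of harvest is given in the labels, and nothing says that replicates were grown apart. The p-values therefore measure the spread between these libraries alone, and that spread may be technical.

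A collagen molecule is a triple helix of 3 alpha chains, rich in glycine and in prolines that are hydroxylated. Chains are hydroxylated and folded in the endoplasmic reticulum, and the procollagen that leaves the cell is trimmed at its C-terminal end, assembled, and cross-linked by lysyl oxidases. In the heart most interstitial collagen is of types I and III and is made by fibroblasts, and cardiomyocytes are not known as its main source.

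Levels are given in FPKM, a fragment count divided by gene length and by a size factor for the library. Reads recovered from the FPKM summed to between 20755849 and 26387605 per library. These sums are lower bounds, because some genes were given the smallest possible length. The least deep library was replicate 3 of the Smyd4-shRNA-labelled libraries. Smyd4 was at 12.5, 12.8 and 13.5 FPKM in the controls and at 12.6, 12.3 and 11.9 FPKM in the Smyd4-shRNA-labelled libraries. The ranges overlapped, and the log2 change was -0.07, standard error 0.04, and was not called (limma, adjusted p = 0.173; exact two-sided permutation p = 0.2, where 0.1 is the smallest value that 3 against 3 libraries allow). The level of the targeted mRNA thus does not bear out a knockdown, and the libraries do not measure protein. The second group is called the Smyd4-shRNA-labelled libraries throughout, and every direction below is relative to that label. Of 10 atrial cardiomyocyte markers, 9 were in the values analysed, and Myh6, Actc1, Ryr2, Tbx5 and Myl7 were each below 0.5 FPKM on average, while Gata4, Nkx2-5, Tnnt2 and Des were detected. Of these 4, Nkx2-5 rose from a mean of 3.57 to 7.68 FPKM, Tnnt2 from 7.11 to 11.7 FPKM and Gata4 from 8.09 to 8.88 FPKM, and Des fell from 137 to 102 FPKM (limma, adjusted p = 0.00022, 6.2e-06, 0.0314 and 3.4e-06). The summed level of the 9 markers, mostly Des, was 154 to 158 FPKM in the controls and 130.3 to 132 FPKM in the others. Of 12 fibroblast markers, Tcf21, Thy1, Lum, Postn and Fap were also below 0.5 FPKM, whereas Pdgfra, Pdgfrb, Dcn, Vim and S100a4 were detected along with the members Col1a1 and Col3a1. The fibroblast list moved in both directions, with 4 markers higher and 2 lower of 7 tested. Pdgfrb rose from a mean of 12.1 to 18.2 FPKM and S100a4 from 2.86 to 3.91 FPKM (limma, adjusted p = 6.8e-06 and 0.0107). Vim and Col1a1 were the other higher markers, and Col3a1 was not called. Dcn, which encodes the collagen-binding proteoglycan decorin, fell from 26.3 ± 0.984 FPKM (SD, 3 libraries) to 1.72 ± 0.336 FPKM and Pdgfra from 4.35 to 2.94 FPKM (limma, adjusted p = 9.2e-08 and 0.00014). The summed level of the list was 1269.9 to 1280.5 FPKM in the controls and 1485 to 1529.8 FPKM in the others, but it holds Col1a1 and Col3a1 themselves and is mostly Vim, which went from 1079 to 1298 FPKM. The summed level of 5 skeletal muscle markers was 79.2 to 81.9 FPKM in the controls and 15.2 to 17.0 FPKM in the others, with Myod1, Chrnd and Chrna1 lower and the other 2 below 0.5 FPKM. The 5 smooth muscle markers summed to 320.1 to 334 FPKM and 214 to 224 FPKM, mostly Acta2, with Myh11 and Cnn1 below 0.5 FPKM. Acta2 fell from a mean of 292 to 196 FPKM and Tagln from 15.8 to 3.82 FPKM, and Smtn was not called. The macrophage sum, 29.2 to 30.6 FPKM and 21.4 to 23.2 FPKM, was nearly all Cd14, which went from 27.9 to 18.6 FPKM. Ptprc, Adgre1 and Csf1r were below 0.5 FPKM, and Cd68 was not called. Lyz2 had a mean of 0.228 FPKM in the controls and was at 0.544, 0.781 and 3.74 FPKM in the Smyd4-shRNA-labelled libraries, highest in replicate 3. The epithelial sum, 6.63 to 7.73 FPKM and 23.2 to 25.2 FPKM, was nearly all Krt14, which went from 7.26 to 23.5 FPKM, and the other 4 markers were below 0.5 FPKM. The 5 endothelial markers measured summed to at most 0.168 FPKM in the controls. They summed to 0.655 FPKM in replicate 3 of the Smyd4-shRNA-labelled libraries, which stood apart in this way. Without that library 22 of the genes described here were called, against 21 with it. Among all genes tested, 4993 were called without it and 5474 with it. In bulk RNA a smaller number of cells of one type and less RNA per cell cannot be told apart, and the part of these marker shifts in the results below was not tested.

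Type I and type VI collagen mRNAs rose, the short-chain collagen Col8a1 fell, type III collagen mRNA was not called, and the lysyl oxidase family changed in both directions. Of the 51 genes, 31 had a mean of at least 1 FPKM and were tested, and the other 20, all collagen chains, were below that level. Of the 31, 14 rose and 7 fell relative to the controls (limma, Benjamini-Hochberg adjusted p under 0.05 over all genes tested). That is 67.7%, beside 48.3% of all 11325 genes tested, of which 25.1% were higher and 23.3% lower. A change of at least 1.5-fold was seen in 9 of the 31 (29.0%), against 6.91% of all tested genes. The median log2 change was 0.07 over the 31 genes and 0.02 over all tested genes, and the median size regardless of sign was 0.22 and 0.13. In all 14 genes called higher and all 7 called lower, the 3 values of one group lay wholly outside those of the other, as it did for Col11a1 and P4ha2, which were not called. Groups lay apart in this way for 57.8% of all tested genes, with 30.2% higher and 27.6% lower. Replicates were close, with a median SD between replicates of 0.039 on the log2 scale for the 31 genes. It was 0.055 for all tested genes, so the 31 genes had the smaller spread, which makes a call easier at the same change.

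**Figure D1:**
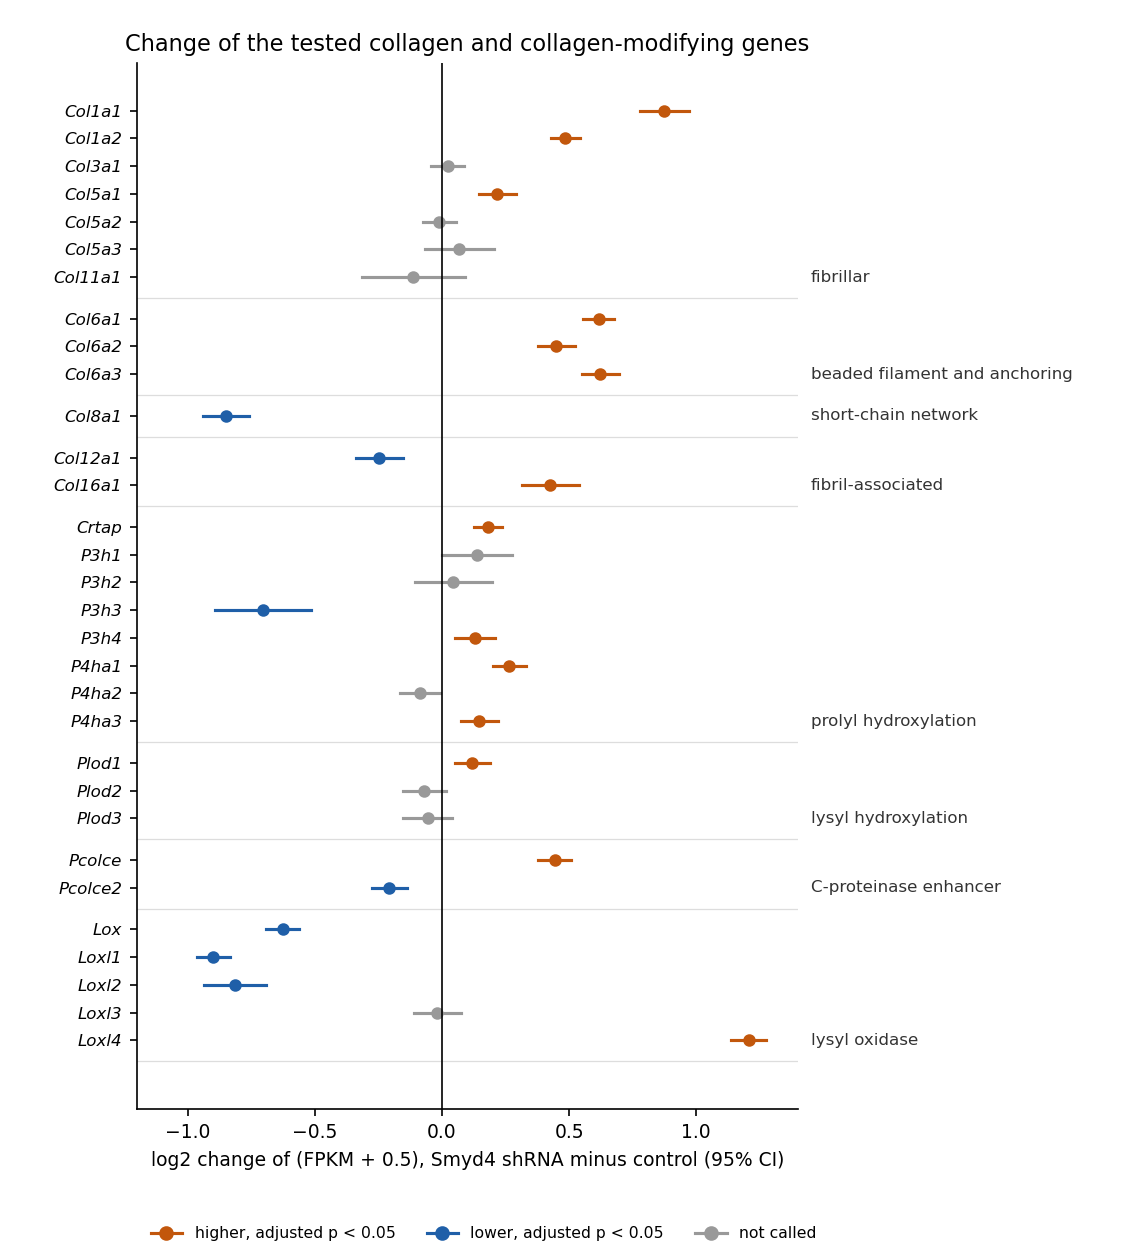
Change of the 31 tested genes on the log2(FPKM + 0.5) scale, Smyd4-shRNA-labelled libraries minus control; points are limma estimates, bars 95% confidence intervals, and colour gives the call at an adjusted p of 0.05. Loxl4 stands farthest to the right at 1.21, and Loxl1 farthest to the left at -0.90.

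Upstream sequences from RefSeq (GRCm38.p6) are shown for 5 of the genes, so that genes that rose, fell and were not called can be read side by side. In GRCm38 they lie at chr19:42612817-42612956 on the minus strand (Loxl4), chr1:90843982-90844121 on the minus strand (Col6a3), chr2:27886275-27886414 on the plus strand (Col5a1), chr16:57754748-57754887 on the minus strand (Col8a1) and chr1:45311388-45311527 on the plus strand (Col3a1). Each line gives the 140 bases from 150 to 11 bases before the RefSeq start, 5′ to 3′ on the gene's strand, in lower case. Capitals mark any match, on either strand, to the box CCAAT, the GC box GGGCGG, the TATA-type element TATAAA, the AP-1 type element TGANTCA or the SMAD-type element CAGACA. No annotated exon lies in these windows. The first 3 genes rose, Col8a1 fell and Col3a1 was not called.
Loxl4: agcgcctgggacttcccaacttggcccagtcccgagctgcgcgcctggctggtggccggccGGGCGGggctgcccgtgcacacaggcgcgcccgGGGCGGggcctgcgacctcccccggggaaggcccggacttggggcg
Col6a3: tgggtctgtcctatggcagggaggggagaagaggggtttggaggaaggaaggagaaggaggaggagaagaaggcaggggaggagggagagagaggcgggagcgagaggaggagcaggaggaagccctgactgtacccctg
Col5a1: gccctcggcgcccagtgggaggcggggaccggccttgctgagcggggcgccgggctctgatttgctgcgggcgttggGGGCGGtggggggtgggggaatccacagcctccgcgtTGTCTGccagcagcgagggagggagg
Col8a1: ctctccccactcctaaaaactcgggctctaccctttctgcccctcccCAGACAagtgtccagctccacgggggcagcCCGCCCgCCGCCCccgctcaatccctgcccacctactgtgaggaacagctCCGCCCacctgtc
Col3a1: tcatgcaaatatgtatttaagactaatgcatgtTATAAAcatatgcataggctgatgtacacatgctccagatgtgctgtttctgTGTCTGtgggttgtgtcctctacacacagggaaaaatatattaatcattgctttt
GGGCGG stood in the windows of Loxl4, Col5a1 and Col8a1, thus before genes that rose and before one that fell, in 20 of all 39 windows of the genes described here (51.3%) and in 26.9% of all 32851 RefSeq windows of the same length. CAGACA stood in those of Col5a1, Col8a1 and Col3a1 in 5 of all 39 windows of the genes described here (12.8%) and in 9.61% of all windows. Of the 5 windows TATAAA was found in that of Col3a1, beside 12.8% of the 39 windows and 7.24% of all windows, and none of the 5 held CCAAT (8 of the 39 and 23.6% of all windows) or TGANTCA (1 of the 39 and 4.07% of all windows). The window of Col6a3 held no match, and the GC content was 79.3% for Loxl4, 62.1% for Col6a3 and 75.0% for Col5a1, which rose, 66.4% for Col8a1 and 35.7% for Col3a1.

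Fibrillar collagens, which form the banded fibrils that carry tension in connective tissue, had 3 genes higher, 0 lower and 4 not called of 7 tested. The share called, 42.9%, was below the 48.3% of all tested genes. Col1a1 (chromosome 11, 94936224 to 94953042, GRCm38) encodes the alpha 1 chain of type I collagen. It was at 38.7, 37.4 and 36.6 FPKM in the controls and at 72.7, 69.8 and 65.4 FPKM in the Smyd4-shRNA-labelled libraries. Every labelled library was above every control library, and the rise was 1.84-fold (log2 change 0.87, standard error 0.04; limma, adjusted p = 1.6e-06). Col1a2 (chromosome 6, 4504814 to 4541544), which encodes the partner alpha 2 chain, was at 61.5, 60.6 and 59.4 FPKM and then at 86.0, 84.6 and 84.0 FPKM. The groups again did not overlap, with a smaller rise of 40.3% (log2 change 0.48, standard error 0.03; limma, adjusted p = 2.2e-06). Col1a2 overlaps Gm43921 on its own strand, so its value may hold reads of that gene model.

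The 2 type I genes therefore rose unequally. A type I collagen molecule usually holds 2 alpha 1 chains and 1 alpha 2 chain. The ratio of Col1a1 to Col1a2 FPKM was 0.629, 0.617 and 0.616 in the controls and 0.845, 0.824 and 0.779 in the Smyd4-shRNA-labelled libraries, without overlap. The absolute ratio depends on the gene lengths used by the authors, which were 6563 bases for Col1a1 and 12426 for Col1a2, whereas its shift between groups does not.

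Col3a1 (chromosome 1, 45311538 to 45349706), the single chain of type III collagen, had the highest level of the fibrillar genes on average. It was at 115, 116 and 111 FPKM in the controls and at 118, 114 and 116 FPKM in the others, with overlapping groups. The log2 change was 0.02 with a 95% confidence interval from -0.04 to 0.09 (limma, adjusted p = 0.542), on 23612 to 30271 reads per library. Col5a2, which lies 24.6 kb from Col3a1 on chromosome 1, was likewise not called, at 48.1, 49.2 and 46.8 FPKM against 47.9, 47.0 and 48.2 FPKM (log2 change -0.01, interval from -0.07 to 0.05; limma, adjusted p = 0.79). Col5a2 overlaps the gene model Gm38211 on its own strand, so its value may hold reads of that model. Type V collagen, built mainly from Col5a1 and Col5a2 chains, is known to start and limit the width of type I fibrils.

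Col5a1 (chromosome 2, 27886425 to 28039514) rose modestly. Its values were 43.7, 42.2 and 41.5 FPKM in the controls and 49.7, 50.6 and 48.0 FPKM in the Smyd4-shRNA-labelled libraries, without overlap (log2 change 0.22, standard error 0.03; limma, adjusted p = 0.00081). The ratio of Col5a1 to Col5a2 FPKM thereby went from 0.884 ± 0.0261 (SD, n = 3) to 1.04 ± 0.0398. Col5a3, a less common type V chain, had means of 5.70 and 6.01 FPKM and was not called. Col11a1, whose chain is prominent in cartilage fibrils, had means of 1.14 and 1.01 FPKM and was not called either, although its groups did not overlap.

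The make-up of the fibrillar mRNA shifted. The type I genes made up 31.8%, 31.3% and 31.7% of the summed FPKM of the 11 fibrillar genes in the controls. They made up 41.5%, 41.4% and 40.5% in the Smyd4-shRNA-labelled libraries. Col3a1 made up 36.8% ± 0.277 (SD, n = 3) and then 31.0% ± 0.508, and the summed FPKM of the fibrillar genes went from 310.1 ± 6.72 to 375 ± 6.89. The ratio of Col1a1 plus Col1a2 to Col3a1 went from 0.859 ± 0.015 to 1.33 ± 0.038; its absolute value, and the shares, depend on the gene lengths used. These sums and ratios were formed after the values had been seen and carry no test.

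**Figure D2:**
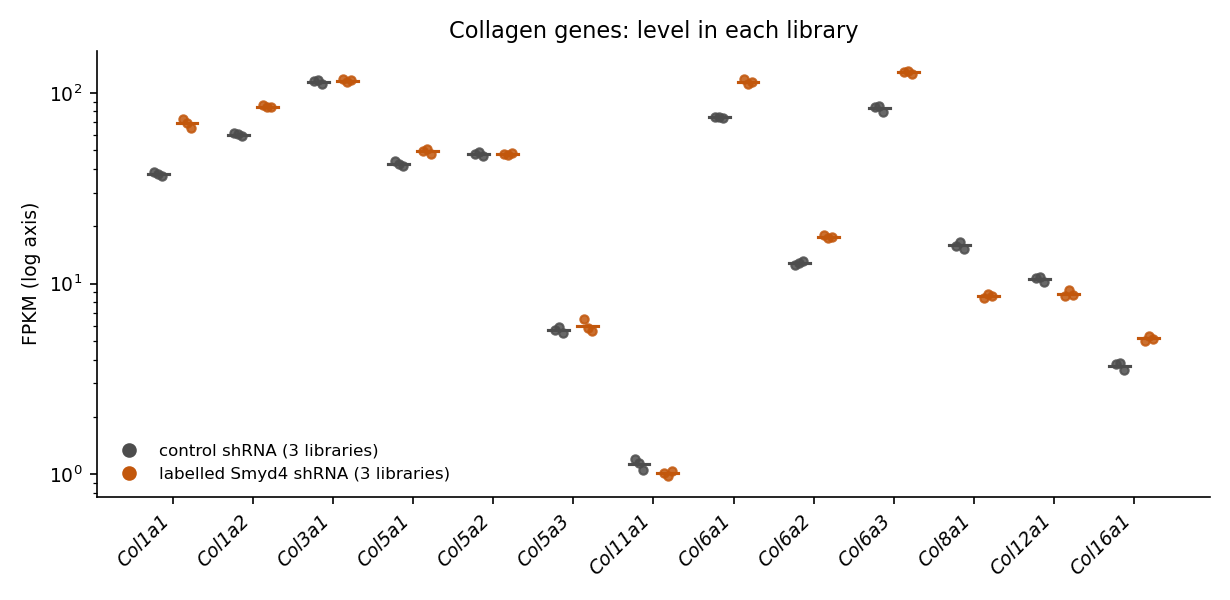
FPKM of the 13 tested collagen genes in each library on a log axis; points are libraries and bars group means. Col1a1, Col1a2, Col5a1, Col6a1, Col6a2, Col6a3 and Col16a1 lie higher in all 3 Smyd4-shRNA-labelled libraries, Col8a1 and Col12a1 lower, and Col3a1 and Col5a2 overlap.

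All 3 tested chains of type VI collagen rose, where 25.1% of all tested genes were called higher. Type VI forms beaded filaments around cells and in the muscle endomysium, and 1 each of the chains encoded by Col6a1, Col6a2 and Col6a3 makes up its common form. Col6a3 (chromosome 1, 90765923 to 90843971), the chain with the longest globular part, was at 84.1, 85.1 and 79.8 FPKM in the controls and at 128, 130.2 and 125 FPKM in the others. Col6a1 (chromosome 10, 76708792 to 76726168) was at 74.9, 74.9 and 73.9 FPKM and at 118, 112 and 114 FPKM. Col6a2, its neighbour 85.2 kb away, was at 12.5, 12.9 and 13.1 FPKM and at 18.1, 17.3 and 17.6 FPKM. For each of the 3 genes every labelled library was above every control library. The log2 changes were 0.62 for Col6a3 (limma, adjusted p = 2.1e-06), 0.62 for Col6a1 (adjusted p = 1.1e-06) and 0.45 for Col6a2 (adjusted p = 1.5e-05), each with a standard error of 0.03.

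Col6a1 and Col6a3 kept nearly the same proportion. The ratio of Col6a3 to Col6a1 FPKM was 1.11 ± 0.0301 (SD, n = 3) in the controls and 1.12 ± 0.0397 in the Smyd4-shRNA-labelled libraries, with overlapping groups. Col6a2 over Col6a1 was 0.172 ± 0.0051 and 0.154 ± 0.00131, without overlap. The low level of Col6a2 beside its partners rests in part on the gene length the authors used, 8326 bases against 4380 for Col6a1. The summed FPKM of the 3 chains went from 170.4 ± 3.15 to 260.2 ± 4.09. Col6a3 overlaps the gene model Gm36970 on its own strand.

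Col8a1 (chromosome 16, 57624258 to 57754737), a short-chain collagen that forms hexagonal lattices and is known from vessel walls and the eye, was the only tested gene of its class and fell. It was at 15.8, 16.6 and 15.2 FPKM in the controls and at 8.39, 8.78 and 8.63 FPKM in the Smyd4-shRNA-labelled libraries. Every labelled library was below every control library, a 1.85-fold difference (log2 change -0.85, standard error 0.04; limma, adjusted p = 1.4e-06). No other collagen among the 13 tested fell by 1.5-fold or more. Its class members Col8a2 and Col10a1 had at most 6 reads in any library.

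The fibril-associated collagens, which sit on the surface of fibrils and have interrupted helices, split. Col16a1 rose from 3.78, 3.83 and 3.53 FPKM to 5.01, 5.33 and 5.15 FPKM (log2 change 0.43, standard error 0.05; limma, adjusted p = 0.00022). Col12a1, which associates with type I fibrils, fell from 10.7, 10.9 and 10.2 FPKM to 8.62, 9.26 and 8.71 FPKM (log2 change -0.25, standard error 0.04; limma, adjusted p = 0.00158). Neither gene's groups overlapped. The other 6 genes of the class in the table, Col9a1, Col9a2, Col9a3, Col14a1, Col20a1 and Col22a1, were at no more than 0.127 FPKM in any library.

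The 20 collagen chains below 1 FPKM on average rest on few reads, and no fold is given for them. Col17a1, a transmembrane collagen of epithelial hemidesmosomes, had 102, 97 and 96 reads in the controls and 31, 31 and 18 in the Smyd4-shRNA-labelled libraries, or 0.739, 0.710 and 0.657 FPKM and 0.206, 0.213 and 0.151 FPKM. Col24a1, a fibrillar chain, had 41, 43 and 49 reads and then 21, 16 and 15. Col23a1, another transmembrane chain, had 12, 14 and 22 reads and then 0, 0 and 2. In these 3 genes and in Col27a1, a fibrillar chain of cartilage with 25, 16 and 22 and then 6, 8 and 5 reads, every labelled library was below every control library. Tested with edgeR on the recovered reads, in which 26.3% of 13775 genes were called lower, all 4 were lower, with adjusted p of 9.2e-10 for Col17a1, 4e-05 for Col24a1, 5.7e-06 for Col23a1 and 0.00037 for Col27a1. Col23a1 and Col27a1 entered that test only through the controls, in which they are high, so no support is drawn from their calls. Col7a1, which anchors the epidermis, was just under the filter at means of 0.814 and 0.963 FPKM and was called higher by edgeR (adjusted p = 0.0352) but not by limma without the filter (adjusted p = 0.234). The other 15, among them the cartilage genes Col2a1, Col9a1 and Col10a1 and the type VI chains Col6a4 and Col6a5, were at no more than 0.202 FPKM in any library. The edgeR test covered 37 of the 51 genes and called 16 higher and 12 lower, with Col23a1 and Col27a1 among the lower. Of all 13775 genes in that test, 23.3% were called higher and 26.3% lower.

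Prolyl hydroxylation had 4 genes higher, 1 lower and 3 not called of 8 tested, with mostly small changes. The share called was 62.5%, beside 48.3% of all tested genes. Prolyl 4-hydroxylases stabilise the triple helix by hydroxylating prolines, and P4ha1, P4ha2 and P4ha3 encode alternative catalytic subunits. P4ha1 was at 53.5, 54.1 and 53.4 FPKM in the controls and at 63.6, 63.3 and 66.8 FPKM in the Smyd4-shRNA-labelled libraries, without overlap (log2 change 0.26, standard error 0.03; limma, adjusted p = 0.00015). P4ha3 rose from means of 26.8 to 29.7 FPKM, and P4ha2 had means of 12.2 and 11.5 FPKM and was not called (limma, adjusted p = 0.0658).

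Of the prolyl 3-hydroxylase genes only P3h3 was called, and it fell, while the associated genes Crtap and P3h4 rose. P3h1, P3h2 and P3h3 encode enzymes that modify single prolines of the helix, Crtap a partner protein that binds P3h1, and P3h4 a related protein without that activity that takes part in lysine hydroxylation. P3h3 fell from 2.40, 2.24 and 2.28 FPKM to 1.34, 1.26 and 1.08 FPKM, on 88 to 227 reads per library, with no overlap (log2 change -0.70, standard error 0.08; limma, adjusted p = 0.00024). Crtap rose from 51.5, 51.3 and 52.2 FPKM to 59.4, 58.8 and 57.6 FPKM (log2 change 0.18, standard error 0.02; limma, adjusted p = 0.00052). P3h4, with the highest mean of the class, rose from 69.2, 66.7 and 70.5 FPKM to 78.3, 74.7 and 72.9 FPKM (log2 change 0.13, standard error 0.03; limma, adjusted p = 0.0154), a call lost without control replicate 2 (limma, adjusted p = 0.0585; 0.00188 to 0.0585 over the alternatives tried). P3h1 had means of 11.7 and 12.9 FPKM and P3h2 of 2.41 and 2.50 FPKM, and neither was called.

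Lysyl hydroxylase genes changed little, with 1 higher and 2 not called of 3 tested (33.3% called, against 48.3% of all tested genes). Their products, encoded by Plod1, Plod2 and Plod3, hydroxylate lysines that later take part in cross-links or carry sugars. Plod1, which acts on lysines of the helix, rose from 16.5, 16.7 and 16.6 FPKM to 18.3, 17.6 and 18.4 FPKM (log2 change 0.12, standard error 0.03; limma, adjusted p = 0.0118). Plod2, known for hydroxylating the telopeptides at the chain ends, had means of 18.7 and 17.8 FPKM and was not called (log2 change -0.07, interval from -0.15 to 0.02; limma, adjusted p = 0.153). Plod3, the member with the highest mean, had 39.1, 35.7 and 37.6 FPKM and then 37.1, 36.5 and 34.4 FPKM, with overlap and no call (log2 change -0.06, interval from -0.15 to 0.04; limma, adjusted p = 0.307).

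The C-proteinase enhancers changed in opposite directions. Both proteins speed the removal of the C-terminal propeptide of fibrillar procollagens. Pcolce (chromosome 5, 137605103 to 137613784), with the highest level of all 51 genes, was at 166, 168 and 166 FPKM in the controls and at 235, 223 and 222 FPKM in the Smyd4-shRNA-labelled libraries. That is a rise of 1.36-fold with no overlap (log2 change 0.44, standard error 0.03; limma, adjusted p = 7.3e-06). Pcolce2 fell from 36.0, 35.4 and 35.1 FPKM to 31.5, 29.7 and 30.9 FPKM, also without overlap (log2 change -0.21, standard error 0.03; limma, adjusted p = 0.0008). The ratio of Pcolce to Pcolce2 FPKM went from 4.69 ± 0.066 (SD, n = 3) to 7.38 ± 0.179. It was formed after the opposite changes had been seen and carries no test. Pcolce overlaps Fbxo24 on its own strand, and the sources used here do not say how reads in the shared stretch were assigned.

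**Figure D3:**
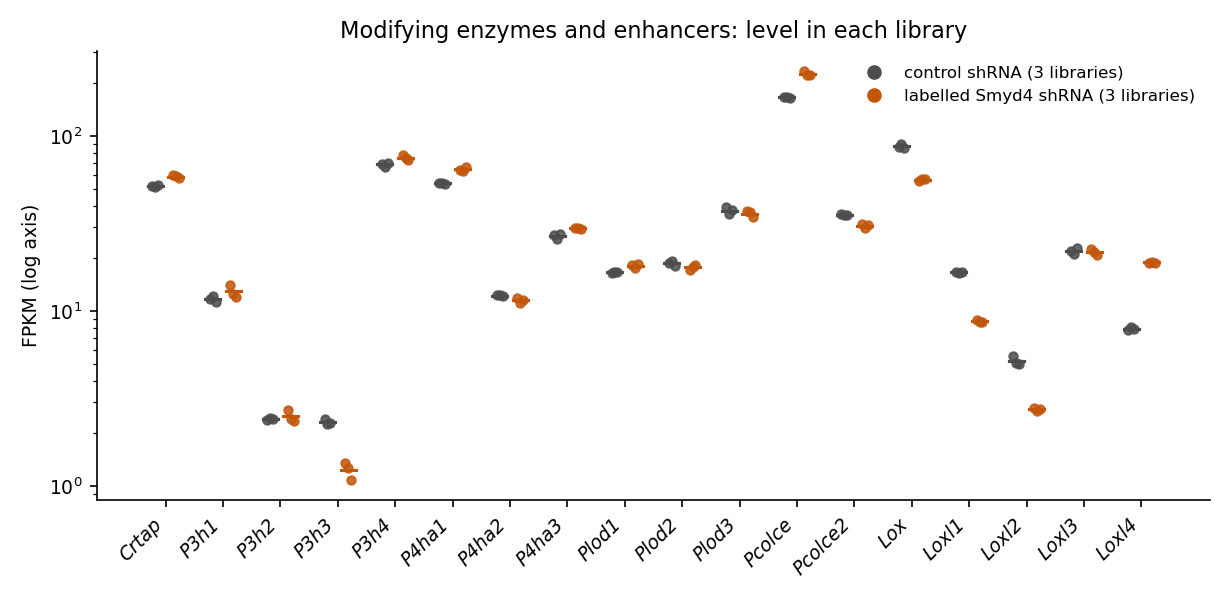
FPKM of the 18 modifying enzymes and enhancers in each library on a log axis; points are libraries and bars group means. Lox, Loxl1, Loxl2 and P3h3 lie lower in all 3 Smyd4-shRNA-labelled libraries, Loxl4 and Pcolce higher, and Loxl3 and Plod3 overlap.

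The lysyl oxidases held the largest rise, Loxl4, and the largest falls, Loxl1 and Loxl2, among the 18 enzymes and enhancers. These copper-dependent amine oxidases turn lysines of collagen and elastin into aldehydes that form cross-links, and Loxl2, Loxl3 and Loxl4 carry scavenger receptor domains that Lox and Loxl1 lack. Of the 5 genes, 1 was higher, 3 were lower and 1 was not called (80% called, against 48.3% of all tested genes). All 4 that were called changed by at least 1.5-fold, which 6.91% of all tested genes did. Loxl4 (chromosome 19, 42593982 to 42612813) was at 7.82, 8.10 and 7.84 FPKM in the controls and at 18.8, 19.1 and 18.9 FPKM in the Smyd4-shRNA-labelled libraries, on 788 to 2075 reads. Every labelled library was above every control library, and the rise was 2.39-fold (log2 change 1.21, standard error 0.03; limma, adjusted p = 6.2e-08).

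Lox, Loxl1 and Loxl2 fell. Lox, the founding member and the one with the highest level, was at 86.9, 89.4 and 84.8 FPKM in the controls and at 55.1, 56.9 and 56.5 FPKM in the others, 1.55-fold lower (log2 change -0.63, standard error 0.03; limma, adjusted p = 1.2e-06). Loxl1 (chromosome 9, 58287723 to 58313212), known for its part in elastic fibres, was at 16.8, 16.6 and 16.8 FPKM and then at 8.82, 8.68 and 8.67 FPKM, 1.92-fold lower (log2 change -0.90, standard error 0.03; limma, adjusted p = 2.3e-07). Loxl2 (chromosome 14, 69609068 to 69695834) was at 5.54, 5.05 and 4.99 FPKM and then at 2.78, 2.69 and 2.75 FPKM, 1.90-fold lower (log2 change -0.81, standard error 0.05; limma, adjusted p = 9.4e-06). In each of these 3 genes the groups did not overlap. Loxl3 overlapped between groups, with 22.1 ± 0.859 FPKM (SD, n = 3) and 21.8 ± 0.849 FPKM (log2 change -0.02, interval from -0.11 to 0.08; limma, adjusted p = 0.742), and it overlaps Htra2 on the opposite strand.

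The make-up of the family shifted accordingly. Loxl4 made up 5.62%, 5.77% and 5.71% of the summed FPKM of the 5 genes in the controls and 17.4%, 17.5% and 17.5% in the Smyd4-shRNA-labelled libraries. Lox went from 62.6% ± 0.989 (SD, n = 3) to 51.8% ± 0.786 and stayed the highest. The summed level of the family was lower, at 139 ± 1.53 FPKM and then 108 ± 0.731 FPKM, while the sums of the fibrillar and type VI chains were higher. The ratio of Loxl4 to Loxl1 went from 0.474 ± 0.0126 to 2.17 ± 0.0322, and here too the absolute value depends on the gene lengths. Loxl4 and Loxl1 had the largest rise and the largest fall of the tested genes described here, so the shift of their ratio follows from those values. These shares, sums and the ratio were formed after the values had been seen and carry no test.

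**Figure D4:**
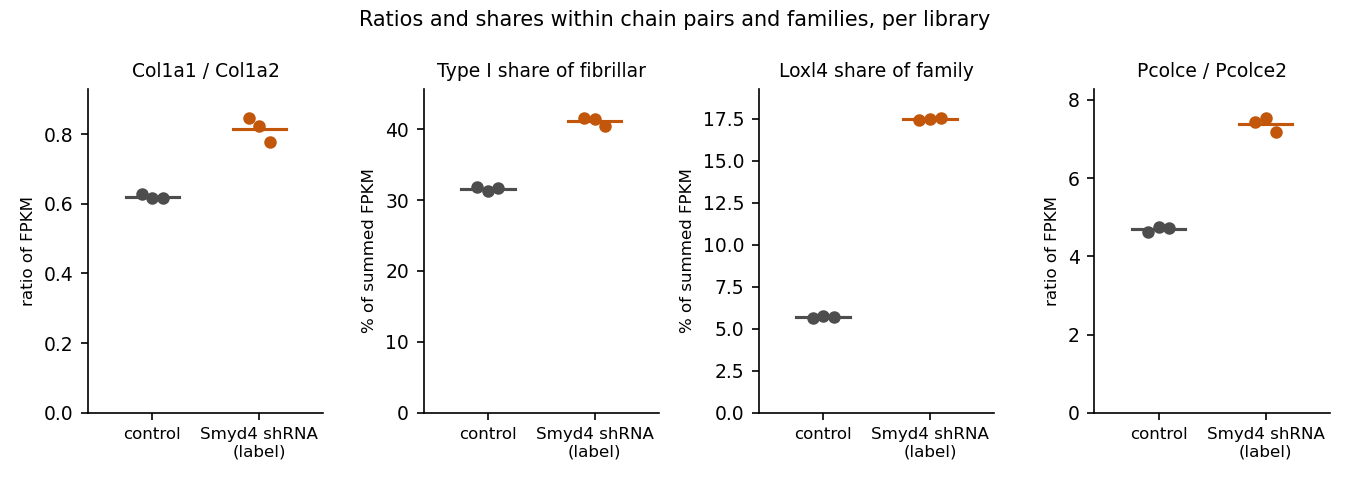
Ratios and shares computed from FPKM in each library, on axes that start at 0; points are libraries and bars group means. In each of the 4 panels the 3 Smyd4-shRNA-labelled libraries lie above the 3 control libraries, with the Loxl4 share going from 5.70% to 17.5%. All 4 quantities were formed after the values had been seen and carry no test.

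Other genes of the pathway were counted from the same fit. Of 30 genes for the folding, secretion and processing of procollagen, 26 were tested, with 11 higher, 4 lower and 11 not called and a median log2 change of 0.06; the share called, 57.7%, stands beside 48.3% of all tested genes. Creb3l1, a transcription factor of the secretory pathway known to act on type I collagen genes, rose from 31.2 ± 0.343 FPKM (SD, 3 libraries) to 49.3 ± 0.346 FPKM (limma, adjusted p = 4.1e-07). Serpinh1, which encodes the collagen chaperone HSP47, rose from 408, 402 and 406 FPKM to 567, 544 and 553 FPKM (limma, adjusted p = 4.3e-06). Adamts14, a protease that removes the N-terminal propeptide, fell from 7.28 ± 0.176 FPKM to 1.90 ± 0.178 FPKM (limma, adjusted p = 4.6e-07). In these 3 genes the groups did not overlap.

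Of 12 collagen receptor and uptake genes, 6 were tested, with 3 higher, 2 lower and 1 not called (83.3% called, beside 48.3% of all tested genes). The 2 lower genes were Itgb1, with means of 184.7 and then 165.7 FPKM, and Ddr1, with 24.2 and then 20.1 FPKM (limma, adjusted p = 0.00085 and 0.00203). Mrc2, an endocytic collagen receptor, rose from means of 23.8 to 28.7 FPKM (limma, adjusted p = 8.9e-05), and the discoidin domain receptor Ddr2, a tyrosine kinase activated by fibrillar collagen, from 39.2 to 49.5 FPKM (limma, adjusted p = 0.00011). Itga10, an integrin chain that binds collagen, had means of 0.826 and 1.76 FPKM (limma, adjusted p = 0.00079) and passed the filter only through the group in which it was high.

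Of the 8 collagen genes that the selection left out, 5 were tested and all 5 were higher, beside 25.1% of all tested genes. Col4a1 rose from a mean of 31.7 to 54.6 FPKM, Col4a2 from 29.6 to 48.5 FPKM and Col4a5 from 5.26 to 9.82 FPKM (limma, adjusted p = 4.9e-07, 3.4e-07 and 7.6e-07). Col4a1 and Col4a2 overlap on opposite strands. The other 2 were Col18a1 and Col4a6, and the second passed the filter only through the Smyd4-shRNA-labelled libraries. The authors' deposited table, which lists 25.2% of all genes in the expression table, holds 25 of the 51 interstitial collagen and modifying genes, 14 higher and 11 lower. All 21 called here are among them, and the other 4 are Col17a1, Col23a1, Col24a1 and Col27a1.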

How the data were processed

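The sample titles give the group and replicate number of the 6 sequenced RNA samples. The labels' protocols name Trizol extraction and Illumina library preparation. Per the submitters' processing notes, TopHat2 2.0.9, Bowtie2 2.0.6 and GRCm38 were used; the counter, annotation, strandedness and statistical test of the authors were not stated. The authors deposited FPKM per gene and library. Their deposited comparison table adds a normalized signal (read count over a size factor), log2 fold changes and adjusted p-values, of which the largest is 0.0499. FPKM times gene length over signal is 1 constant, so the FPKM carry the same size factors. Whole reads were recovered for 100% of values within 0.01, with lengths from the authors for 5616 genes, from GENCODE M21 for 13288 and, for 3342, the smallest possible length, which gives lower bounds. For genes without a length from the authors, the length was searched so that the reads came out whole. The 100% is therefore no check of the reads of those genes. Symbols matched 22134 of 22246 identifiers.

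Values were fitted as log2(FPKM + 0.5), a scale that understates changes of low genes, where the mean reached 1 FPKM, with limma 3.58.1 in R 4.3.3 (empirical Bayes with trend) and Benjamini-Hochberg adjustment at 0.05. The fit was also run on simulated reads with far fewer changed genes than were called here, and no support is drawn from that run. The recovered reads were tested with edgeR 4.0.16 (quasi-likelihood). The rule for the members uses symbols only, but this group of genes, its members, the lists and the tests were chosen with earlier results of these data known. Full statistics are given, in each role class, for up to 3 called genes with the largest change and for the gene with the highest mean, and in each further list for up to 3 called genes with the smallest adjusted p. Statistics of Col5a2, P4ha2, Plod2, Loxl3, Itgb1, Ddr1, the cell type markers and the genes below the filter were added after their values were seen. So were the names Col18a1 and Col4a6 and the sums, shares and ratios within collagen types and enzyme families. Nppa, a level check, is not analysed here. Promoter windows come from RefSeq, with an entry for 36 of the 51 genes.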

Additional observations from a re-analysis of the deposited data

How the results depend on the processing

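Over 13 alternatives (2 other pseudocounts, no filter on low values, 2 other scalings, the replicate block, each library left out in turn, and edgeR on recovered reads), 28 of the 31 tested genes kept their call, among them 20 of the 21 called, and no called gene changed direction; P3h4 is the exception (limma, adjusted p = 0.0585 without control replicate 2). Of the 51 genes, 12 were called lower by edgeR and 11 by limma without a filter on low values, against 7 in the reported fit; both test more low genes. P4ha2 was called lower by edgeR (adjusted p = 0.0359), with median-of-ratios scaling (limma, adjusted p = 0.0403) and without replicate 1 of the Smyd4-shRNA-labelled libraries (0.0380), and P3h1 was called higher by edgeR (adjusted p = 0.0191) and without replicate 3 of those libraries (limma, 0.0371). With 1 library left out, 20 to 22 of the 51 genes were called. Among all genes tested, 4536 to 4993 were then called, against 5474 in the reported fit. Without replicate 3 of the Smyd4-shRNA-labelled libraries, which stood apart in endothelial markers and in Lyz2, 15 were higher and 7 lower. Same-numbered libraries did not deviate together (correlations of deviations -0.03, 0.02 and 0.01), so no shared effect of the replicate number was seen. Whether same-numbered samples were grown or prepared together cannot be told from these correlations. With the replicate block 21 of the 51 genes were called, as without it. Of all 11325 genes tested, 5141 were called with the block and 5474 without it. Genes with few reads per library are limited by depth.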
